A study of Mus musculus with 2 samples.

Results

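Chromosome 14 of the mouse carries 39 of the 1112 olfactory receptor (Olfr) entries measured here. Olfr1507, Olfr1508 and Olfr1509, the 3 genes beside the H element, were set aside, and the 36 other entries with a locus on chromosome 14 in the mouse build mm9 are described below. All 36 were chosen by position alone, and none was left out for a low value. RNA came from the olfactory epithelium of adult wild-type C57BL/6 mice, in 2 libraries that share strain, stage, tissue and genotype label. The description field of the second library, however, reads 3bko, a term the labels do not explain. Every row of the table likewise names wt as its first sample and 3bko as its second. The table holds 1 FPKM per entry, a level in fragments scaled for the length of the gene model and for the total of mapped fragments, and it cannot be assigned to either library. The sequencing depth is unknown. Every level below is therefore the authors' single value, without replicate error, and no order of neighbouring values could be tested. Nothing in the labels says whether the RNA of 1 or several animals went into a library.

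Olfactory receptors are G-protein-coupled receptors of the sensory neurons in the nose. A mature neuron typically expresses a single receptor gene, from a single allele, out of the whole repertoire, and the choice is governed by enhancers that lie among the receptor clusters. The H element, on chromosome 14, was the first such enhancer described and acts on the receptors closest to it, among them MOR28 (Olfr1507), MOR10 (Olfr1508) and MOR83 (Olfr1509). In RNA from whole tissue, more neurons that chose a receptor and more receptor RNA per neuron cannot be told apart. The table contains receptor genes only. None of 10 markers of mature and immature olfactory neurons, sustentacular cells and basal cells is in it, so the tissue label could not be checked against them.

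Many of the chromosome 14 receptors are close copies of a neighbour, which bears on how well their reads can be told apart. The sequences below show this for the family of Olfr727 (MOR246, in the MOR nomenclature that groups mouse receptors by sequence similarity). They are 90 bases of coding sequence, 5′ to 3′, from GENCODE M21 transcripts. The window is the ungapped stretch where Olfr726 and Olfr725 differ most from Olfr727, and capitals mark each base that differs from Olfr727.
Olfr727: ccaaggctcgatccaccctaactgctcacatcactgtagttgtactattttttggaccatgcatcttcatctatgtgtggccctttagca
Olfr726: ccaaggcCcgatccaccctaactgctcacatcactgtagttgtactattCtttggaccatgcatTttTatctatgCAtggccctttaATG
Olfr725: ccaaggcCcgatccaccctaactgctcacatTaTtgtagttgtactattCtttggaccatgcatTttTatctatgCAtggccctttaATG
Olfr728: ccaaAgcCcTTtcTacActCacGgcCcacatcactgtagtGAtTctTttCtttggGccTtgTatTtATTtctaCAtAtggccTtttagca
Olfr729: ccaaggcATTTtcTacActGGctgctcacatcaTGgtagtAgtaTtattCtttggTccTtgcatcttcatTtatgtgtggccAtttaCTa
Olfr731: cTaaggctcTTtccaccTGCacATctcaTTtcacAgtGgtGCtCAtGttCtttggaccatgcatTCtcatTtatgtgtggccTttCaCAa

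In this window, bases 701 to 790 of each coding sequence, Olfr726 differs from Olfr727 at 9 bases and Olfr725 at 11. Olfr728 and Olfr731 differ at 25 bases each and Olfr729 at 19. The family of Olfr741 (MOR106) is shown in the same way, in the stretch where Olfr742, Olfr743, Olfr740 and Olfr739 together differ most from Olfr741. Capitals mark bases that differ from Olfr741.
Olfr741: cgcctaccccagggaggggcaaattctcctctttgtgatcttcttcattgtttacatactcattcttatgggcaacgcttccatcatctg
Olfr742: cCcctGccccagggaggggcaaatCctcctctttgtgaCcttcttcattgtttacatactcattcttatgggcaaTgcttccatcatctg
Olfr743: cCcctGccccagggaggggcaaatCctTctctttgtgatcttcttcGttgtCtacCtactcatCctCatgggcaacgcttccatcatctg
Olfr740: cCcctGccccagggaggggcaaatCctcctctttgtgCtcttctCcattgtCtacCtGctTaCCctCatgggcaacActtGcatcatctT
Olfr739: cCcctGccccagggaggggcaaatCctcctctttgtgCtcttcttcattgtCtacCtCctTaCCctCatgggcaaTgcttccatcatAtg
Olfr738: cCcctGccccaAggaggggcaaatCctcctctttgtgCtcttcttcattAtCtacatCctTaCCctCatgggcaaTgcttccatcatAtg

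Olfr742, the closest copy of Olfr741, differs here at 5 of 90 bases, and Olfr743 differs at 9. Olfr740, Olfr738 and Olfr739 differ at 15, 14 and 13 bases. Both windows were chosen for differences between the close copies, so they show these copies where they are least alike.

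The chromosome 14 receptors spanned nearly the whole range of the repertoire and were frequent near its top. The middle of their values lay at an FPKM of 2.15 (median; quartiles 1.03 and 5.94), against a median of 1.09 for all 1112 entries. The lowest value was 0.0293, for Olfr746, and the highest was 55.4, for Olfr727. An FPKM of 1 or more was listed for 27 of the 36 (75%), against 52.5% of all entries. Of the 36, 11 (30.6%) reached an FPKM of 5, against 14.3% of all entries. An FPKM of 10 or more was listed for 7 of the 36 (19.4%), against 5.40% of all entries. Of the 25 highest entries in the table, 5 were chromosome 14 receptors outside the trio, and 8 of the 36 were among the 100 highest.

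**Figure D1:**
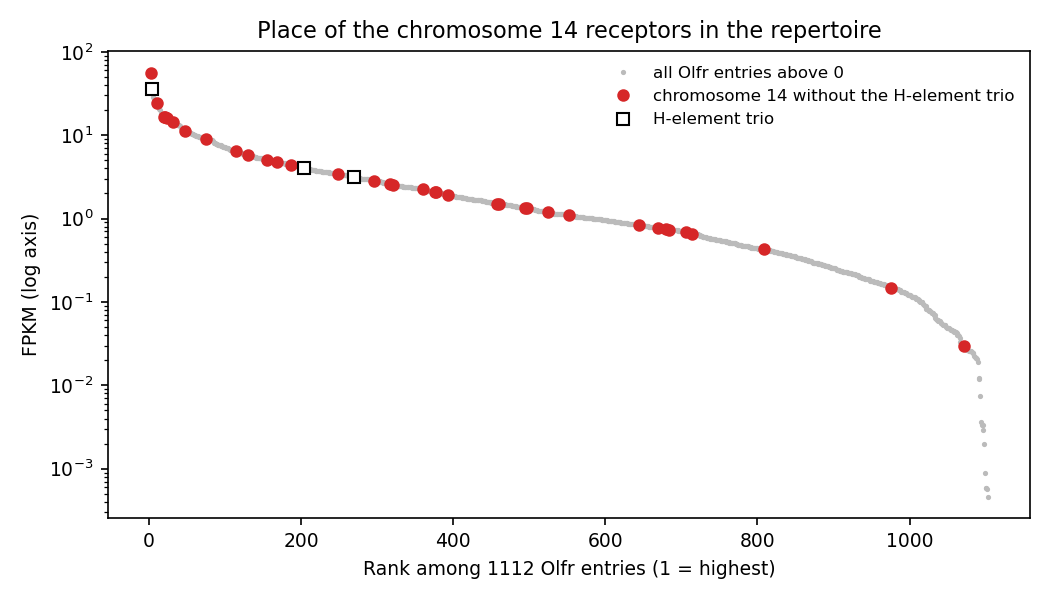
FPKM (vertical, log axis) of every Olfr entry above 0 against its rank among 1112 entries (horizontal, 1 = highest), with the 36 chromosome 14 receptors as filled red points and the H-element trio as open squares. The red points run from rank 2 (Olfr727, FPKM 55.4) to rank 1071 (Olfr746, FPKM 0.0293), and 8 of them lie among the 100 highest.

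The 36 genes, 3.24% of all entries, contributed 7.51% of the total Olfr FPKM. Olfr727 alone contributed 24.9% of the sum over the 36 and Olfr741 contributed 11%. Without this pair, the other 34 receptors held 4.81% of the summed Olfr FPKM. The median of log2(FPKM + 0.1) was 0.97 higher than that of all other entries. Among the 13 chromosomes with at least 10 entries, and with the trio left out, chromosome 14 took place 4 by median FPKM, after chromosomes 13 (4.34), 16 (3.59) and 17 (2.36). By the share of entries at an FPKM of 10 or more it came first at 19.4%, followed by chromosome 16 at 13.2%. Of the 18 chromosome 14 receptors with mostly unique coding sequence (at least 80% of 50-base stretches in no other Olfr gene), 2 (11.1%) reached 10, and the other chromosomes were not filtered in this way. These figures describe 1 set of values, and the differences between chromosomes were not tested.

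Along the chromosome the receptors fell into 7 stretches separated by at least 100 kb. Olfr720 and Olfr31 stood alone near 15 Mb, 152 kb apart, and 35.4 Mb separated them from the next receptor. The main stretch held 27 of the 36 genes, from Olfr722 to Olfr749 (chromosome 14, 50513933 to 51363999, mm9), a span of 850.1 kb whose widest inner gap was 83.9 kb. Olfr750 (51689986 to 51691117) and Olfr221 (52654849 to 52655784) each stood alone between the main stretch and the trio. The stretch of the H-element trio also held Olfr1513, Olfr1512, Olfr1511 and Olfr1510. Olfr49 (54901571 to 54902600) was the single receptor on the far side of the trio. The main stretch had a median FPKM of 2.84, and 22 of its 27 genes (81.5%) reached 1, against 52.5% of all entries. It contained 6 of the 7 genes at 10 or more. These were 22.2% of its genes, against 19.4% of the 36 and 5.40% of all entries. The 4 receptors beside the trio had a median of 1.12, close to the 1.09 of all entries. None of the 4 reached 5, against 14.3% of all entries, and they are too few to compare shares.

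**Figure D2:**
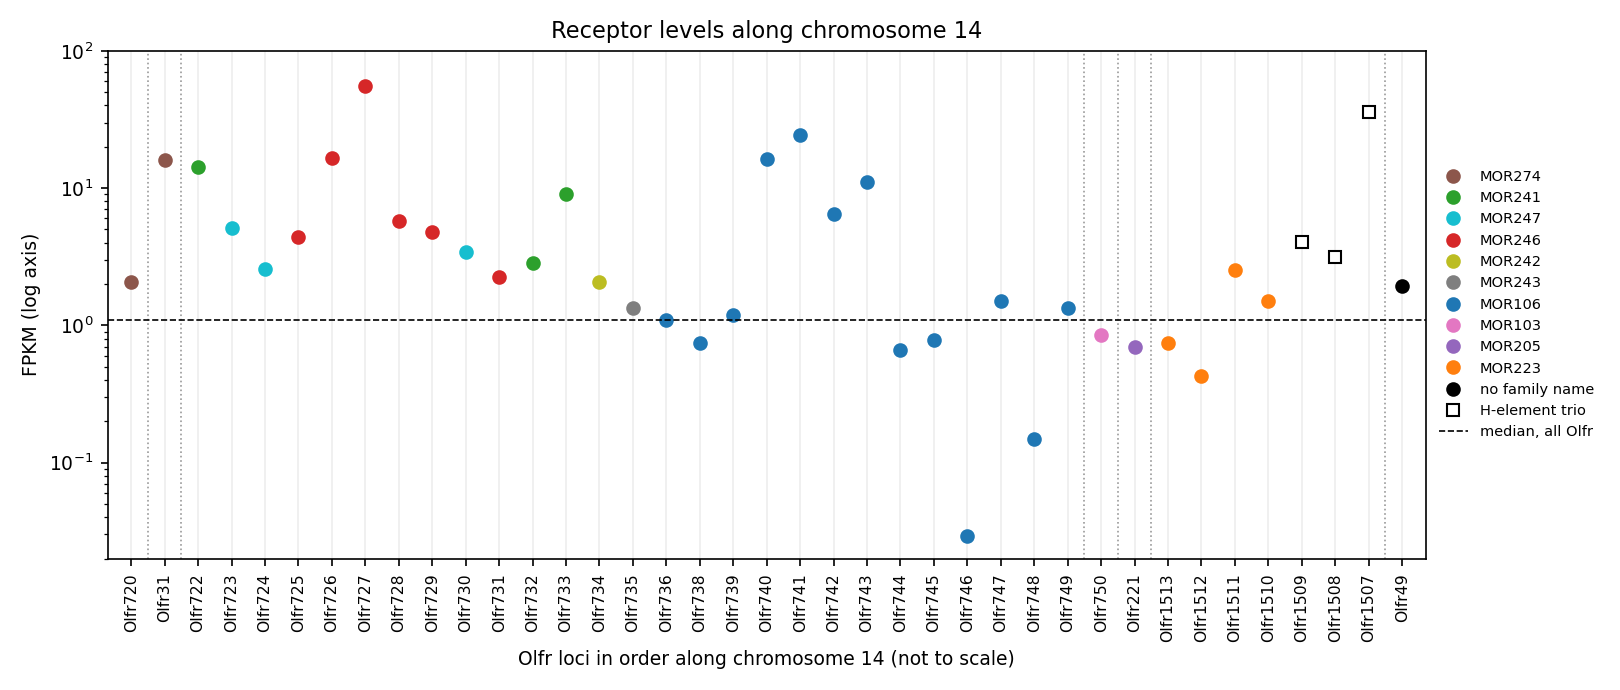
FPKM (vertical, log axis) of the 39 chromosome 14 receptors in their order along the chromosome (horizontal, not to scale). Colours mark the MOR family, open squares the H-element trio, dotted lines gaps of at least 100 kb and the dashed line the median of all Olfr entries (1.09). Peaks stand at Olfr727 (55.4) and at Olfr740 to Olfr743 (6.48 to 24.5), and no value from Olfr744 to Olfr749 exceeds 1.50.

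Olfr727 (MOR246-2, chromosome 14, 50746228 to 50747262) had the second highest FPKM of the whole table, 55.4 against 57.2 for Olfr533, the highest entry. It was above Olfr1507, the highest of the trio, at 36.0. Olfr727 was the only one of the 36 above Olfr1507, while 13 of the 36 were above Olfr1509 (4.02) and 14 were above Olfr1508 (3.15). The 5 other members of its family were lower. Olfr726 (50703389 to 50704354), the neighbour 41.9 kb before it, had 16.5. Olfr728, the neighbour 12.1 kb after it, had 5.76. Olfr729 had 4.76, Olfr725 had 4.38 and Olfr731 had 2.24. Olfr727 was thus 3.35-fold above the next member of its family and 12.7-fold above Olfr725. It held 62.2% of the family's summed FPKM.

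Every MOR246 gene lies in the main stretch, and all 6 had an FPKM of 1 or more, against 52.5% of all entries. The family's median was 5.26. Olfr727 is the single gene on the plus strand among the 14 receptors from Olfr722 to Olfr735, in the GENCODE annotation, and the 13 others are on the minus strand. In the sequences printed above, Olfr726 and Olfr725 are the nearest copies of Olfr727, with 93.1% and 91.7% identity over the whole coding sequence. Of the coding 50-mers of Olfr727 (all its stretches of 50 bases), 76.5% occurred in no other annotated Olfr gene, and 17.6% occurred in Olfr725. For Olfr726 the unique share was 66.3% and for Olfr725 59.1%, whereas Olfr728, Olfr729 and Olfr731 shared no 50-mer with another Olfr gene. How the authors' counting treated reads that match several genes is not stated in the labels or the table, so the values of Olfr725, Olfr726 and Olfr727 are uncertain by an amount that was not tested.

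Olfr741 (MOR106-10, also MOR106-15, chromosome 14, 51092732 to 51106070) had the tenth highest FPKM of the table, at 24.5. It lies in a run of 4 neighbours of the MOR106 family, singled out after their values were seen. Olfr740 had 16.3, Olfr742 had 6.48 and Olfr743 had 11.1. These 4 genes, within 81.3 kb, held 88.6% of the summed FPKM of the 13 MOR106 genes and 26.3% of that of the 36 receptors. The 9 other MOR106 genes were all lower than these 4. On one side, Olfr736 had 1.10, Olfr738 had 0.747 and Olfr739 had 1.19. On the other, beyond the 83.9 kb gap, 6 genes from Olfr744 to Olfr749 lay between 0.0293 and 1.50.

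The MOR106 genes ran from 0.0293 to 24.5 around a median of 1.19. Olfr746 and Olfr748, the lowest 2 of the 36 (0.0293 and 0.148), carry the status NOTEST, which was given to 203 of all 1112 entries. The 34 others of the 36 have the status OK. The highest MOR106 value was 834-fold above that of Olfr746. It was 37.0-fold above that of Olfr744, the lowest MOR106 gene with the status OK. The ratio of highest to lowest was 24.7-fold for the MOR246 genes, which are fewer. Olfr744, next to the run, had 0.662 and was 16.8-fold below its neighbour Olfr743. Olfr739 was 13.8-fold below its neighbour Olfr740, 27.6 kb away, although their coding sequences are 93.2% identical. Of the coding 50-mers, 71.4% were unique for Olfr741, 75.8% for Olfr740, 76.9% for Olfr743 and 56.1% for Olfr742. The largest overlap of Olfr741 was with Olfr742, at 26.8% of its 50-mers. Olfr740 also shared sequence with the pseudogene Olfr737-ps1, the single case of a 50-mer shared with a gene that is not among the 39 chromosome 14 entries. Of the 13 MOR106 genes, 11 are annotated on the plus strand and Olfr747 and Olfr749 on the minus strand.

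The families MOR241, MOR247, MOR242 and MOR243 complete the main stretch. Their 8 genes all had an FPKM of 1 or more, against 52.5% of all entries. In MOR241, Olfr722 (50513933 to 50521616), the first gene of the stretch, had 14.2, Olfr733 had 8.98 and Olfr732 had 2.84. All coding 50-mers of Olfr722 were unique, as were 85.8% of those of Olfr732 and Olfr733. In MOR247, Olfr723 had 5.10, Olfr730 had 3.40 and Olfr724 had 2.57. Olfr734, of MOR242, had 2.06 and Olfr735, of MOR243, had 1.34. The 14 genes on the Olfr722 side of the stretch had a median of 4.57 and ran from 1.34 to 55.4, and the 13 MOR106 genes that follow them had a median of 1.19. Within the main stretch, level and position gave a Spearman coefficient of -0.53 and a Pearson r of -0.54 over 27 genes, given as a description because neighbours share family and sequence.

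Olfr723 and Olfr724 are the most similar pair of the 36, at 98.5% identity, with 14 differences in 930 aligned bases. They are printed over the 90 bases in which they differ most, bases 232 to 321 of each coding sequence, with capitals where Olfr724 differs from Olfr723.
Olfr723: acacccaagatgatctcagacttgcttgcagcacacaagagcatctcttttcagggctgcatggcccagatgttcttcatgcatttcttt
Olfr724: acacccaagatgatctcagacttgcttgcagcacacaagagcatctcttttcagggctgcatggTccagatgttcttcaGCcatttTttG

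Even here only 5 of the 90 bases differ, and 64.0% of the 50-mers of each gene occurred in the other. The 1.98-fold higher value of Olfr723 is therefore uncertain.

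The isolated receptors differed among themselves. Olfr31 (15160627 to 15161580), the fifth highest of the 36, had 16.0 and its family partner Olfr720 (15007644 to 15008594) had 2.06, a 7.75-fold difference within MOR274. No coding 50-mer of either gene occurred in another annotated Olfr gene. Olfr750 had 0.845. It was the lowest of the 17 MOR103 genes in the table, since the 16 others, on other chromosomes, ran from 1.67 to 28.7 with a median of 4.52. Olfr221, the table's single MOR205 gene, had 0.691. Olfr49, for which the RefSeq synonyms give no family name in the usual form, had 1.93. All coding 50-mers of Olfr750, Olfr221 and Olfr49 were unique.

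The receptors next to the H-element trio had lower levels than the trio. Olfr1510 (53029564 to 53030602), 39.5 kb from Olfr1509, had 1.50, and Olfr1511 (53009490 to 53010446), at 59.6 kb, had 2.54. Olfr1512 (52991785 to 52992726), at 77.3 kb, had 0.426, and Olfr1513 (52968778 to 52969719), at 100.3 kb, had 0.739. All 4 were below each of the trio, whose values were 36.0 for Olfr1507, 3.15 for Olfr1508 and 4.02 for Olfr1509. Olfr1509 was 2.68-fold above Olfr1510 and Olfr1507 was 24.1-fold above it. The 4 genes form the chromosome 14 part of family MOR223. The 5 other MOR223 genes, on chromosome 9, were lower still, from 0.0264 to 0.236, against 0.426 to 2.54 for the chromosome 14 genes. Of these 5, 3 carry the status NOTEST. Chromosome 9 also had the lowest median FPKM, 0.542, of the 13 chromosomes with at least 10 entries. On the far side of the trio the nearest receptor was Olfr49, at 1.79 Mb.

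Of the 6 pairs among these 4 genes, 2 are near copies, Olfr1511 with Olfr1510 and Olfr1513 with Olfr1512, and the 4 other pairs are less than 80% identical. Olfr1511 and Olfr1510, the nearest to the trio, are shown over the bases where they differ most (458 to 547 of each coding sequence, capitals where Olfr1510 differs from Olfr1511).
Olfr1511: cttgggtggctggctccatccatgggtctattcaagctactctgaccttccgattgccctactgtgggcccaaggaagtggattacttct
Olfr1510: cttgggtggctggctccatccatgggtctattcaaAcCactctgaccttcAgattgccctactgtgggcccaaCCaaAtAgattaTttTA

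They differ at 10 of these 90 bases and are 97.3% identical overall. Olfr1511 had a 1.70-fold higher FPKM, and 53.9% of the 50-mers of either gene occurred in the other. For Olfr1512 and Olfr1513 the shared part was 29.2%, at 96.0% identity.

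Level did not decline with distance from the trio. The position of the H element itself was not used, so these are distances to the trio loci, not to the element. Over the 36 receptors, the Spearman coefficient between FPKM and the distance to the nearest trio locus was 0.62, with higher levels farther away, and Pearson's r of log2(FPKM + 0.1) with distance was 0.18. Among the 34 receptors within 3 Mb of the trio, the Spearman coefficient was 0.62 and r was 0.43. The points share stretches and families, and the 27 of the main stretch all lie between 1.71 and 2.55 Mb from the trio, so these correlations are descriptions. Olfr727 lies 2.32 Mb and Olfr741 1.96 Mb from the nearest trio locus. The 3 genes within 100 kb of the trio had a median of 1.50, and the 33 others had 2.24. Olfr1513 (0.739), at 100.3 kb, fell just outside this cut. With it, the 4 receptors beside the trio had a median of 1.12.

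**Figure D3:**
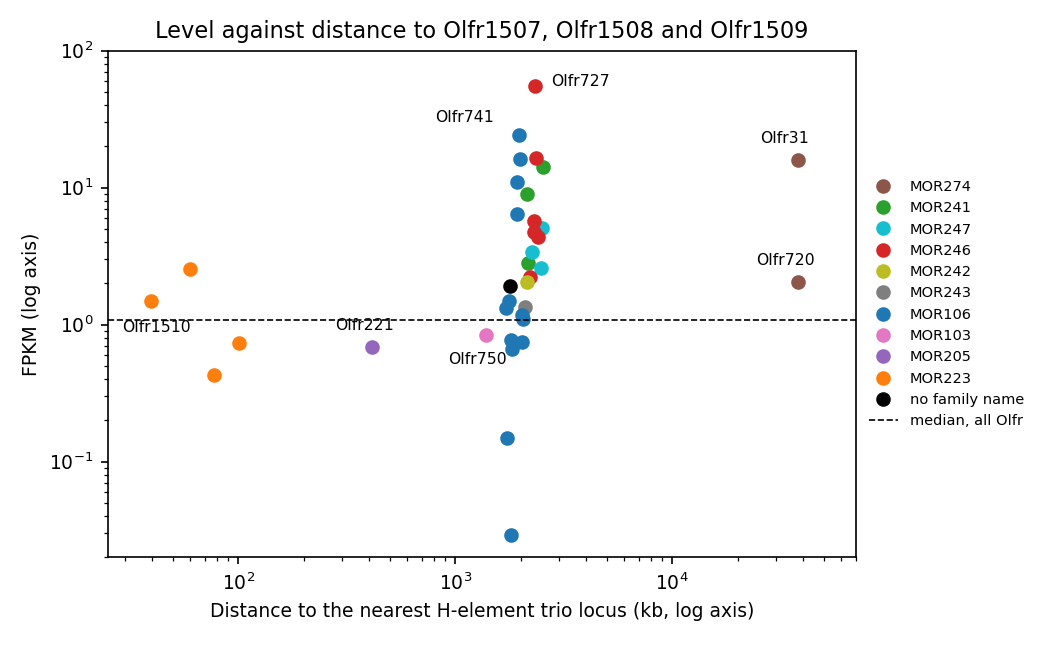
FPKM (vertical, log axis) of the 36 receptors against the distance in kb to the nearest of Olfr1507, Olfr1508 and Olfr1509 (horizontal, log axis), coloured by MOR family, with the median of all Olfr entries dashed. The 4 orange MOR223 genes at 39.5 to 100.3 kb lie between 0.426 and 2.54, and Olfr727 (55.4) lies at 2323 kb.

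The folds of receptor pairs alike in sequence were close to those of all pairs. Of the 630 pairs among the 36, 30 pairs had coding sequences at least 80% identical, and their FPKM differed by more than 5-fold in 14 of these (46.7%), against 268 of all 630 pairs (42.5%). The median fold was 3.77 for the 30 and 3.82 for all 630. Of the 14, 12 set a gene of the run Olfr740 to Olfr743 against Olfr738, Olfr739 or Olfr744, so they are not separate observations. The largest fold among the 30 was 37.0, between Olfr741 and Olfr744 at 80.9% identity. For the 24 pairs between 80% and 95% identity the median fold was 7.07. In the 6 pairs at 95% or more it was 1.86, with none above 3.77, reached by Olfr725 with Olfr726 and by Olfr741 with Olfr742. The pairs share genes with one another. The part of reads common to near copies in these smaller folds was not tested. Neighbours in the main stretch had a median difference of 1.21 on the log2(FPKM + 0.1) scale over 26 pairs, against 2.02 for the 325 other pairs of the stretch. It was 1.37 for 1029 pairs of Olfr neighbours less than 100 kb apart in the whole table. The 18 neighbour pairs of 1 family in the main stretch had 1.82, against 2.29 for all 99 pairs of 1 family there. The 8 neighbour pairs of 2 families had 0.58, against 1.89 for all 252 pairs of 2 families.

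**Figure D4:**
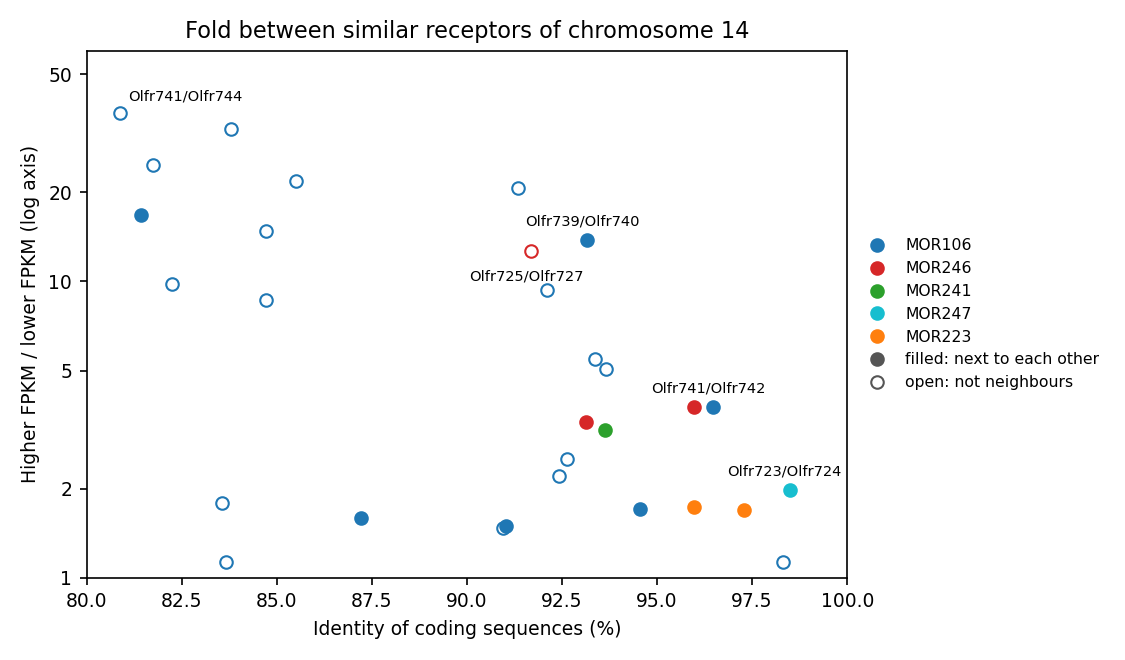
Ratio of the higher to the lower FPKM (vertical, log axis) against identity of the coding sequences (horizontal, %) for the 30 pairs of chromosome 14 receptors at least 80% identical. Colours mark the family, filled points pairs of neighbours and open points other pairs. Olfr739 and Olfr740 differ 13.8-fold at 93.2% identity, and no pair at 95% or more exceeds 3.77-fold.

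Of the 36 receptors, 14 had only unique coding 50-mers and 18 had a unique share of at least 80%. In those 18 the median FPKM was 2.06, 13 reached an FPKM of 1 and 4 reached 5, namely Olfr31, Olfr722, Olfr733 and Olfr728. The 18 with a smaller unique share had a median of 2.56, and 7 of them reached 5, Olfr727 and Olfr741 included. The Spearman coefficient between FPKM and the unique share was 0.03 over the 36.

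**Figure D5:**
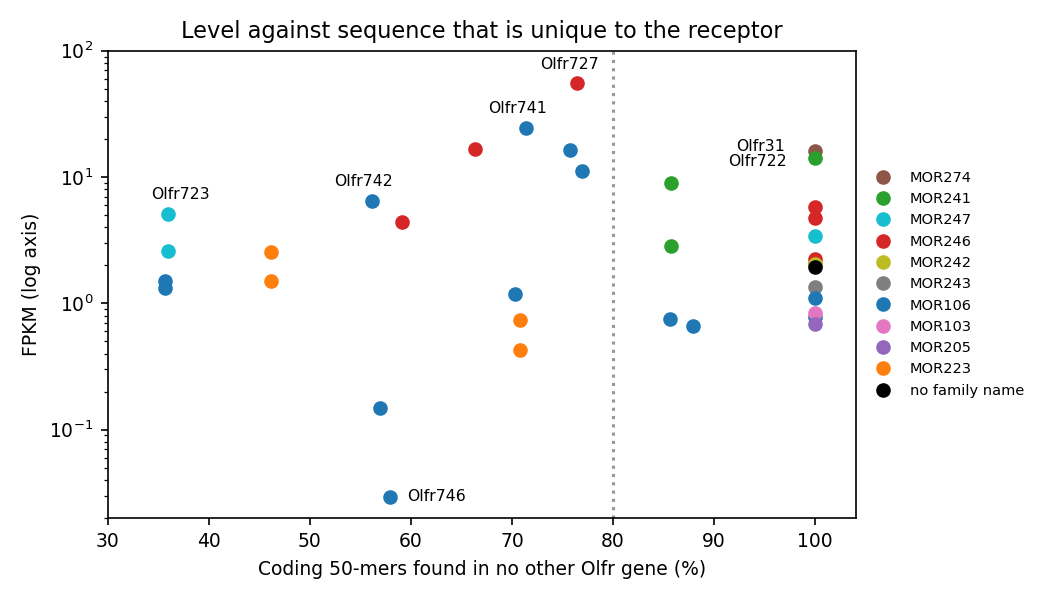
FPKM (vertical, log axis) of the 36 receptors against the share of their coding 50-mers found in no other Olfr gene (horizontal, %), coloured by family, with a dotted line at 80%. Both high and low values occur on either side of the line, and Olfr727 (76.5%) and Olfr741 (71.4%) lie to its left.

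The loci listed with the values differ in extent. For 19 of the 36 the locus in the table is as long as the GENCODE coding sequence, with or without its stop codon, and for 17 it is longer. The locus was over 2 kb for 4 genes, Olfr742 (17175 bp), Olfr741 (13339 bp), Olfr749 (8106 bp) and Olfr722 (7684 bp), far longer than any of the coding sequences (924 to 996 bases). A locus is a genomic span that includes any introns. The GENCODE transcripts of these 4 genes are 2244, 3406, 1330 and 1582 bases long. The length by which each FPKM was scaled is not stated. Genes with a locus no longer than the coding sequence had a median of 2.06 and the others had 2.84. In GENCODE, 12 of the 36 have 3 exons, with a median FPKM of 5.62, and 19 have 2 exons, with a median of 1.50. The 4 genes with 4 or more exons had a median of 1.70, and Olfr730, with a single exon, had 3.40. The Spearman coefficient of FPKM with exon number was 0.22, with the length of the 5′ untranslated region 0.003 and with that of the 3′ untranslated region 0.11, each over 36 genes and without a test.

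The regions before the genes were scanned in the RefSeq windows of 300 bases (GRCm38.p6, 250 before to 50 after the annotated start), which were found for 31 of the 36, though not for Olfr727 or Olfr741. For 17 of the 31 the annotated start is the start codon, so those windows may lie far from where transcription begins. The letters TAATNA, a core bound by homeodomain proteins such as Lhx2, were present on either strand in 21 of the 31 windows (67.7%), against 66.3% of 915 Olfr windows. The letters CCCNNGGG, the centre of sites for the Olf/Ebf factors, were found in none of the 31 and in 2.95% of the 915. Of the 915 windows, 670 also have the start codon as annotated start. Among windows not at a start codon, CCCNNGGG was in none of 14, against 7.35% of 245 Olfr windows. So few windows cannot tell such shares apart. Both motifs were searched on both strands, and neither contains the other. These are matches of letters, not binding sites.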

How the data were processed

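RNA-seq of 2 olfactory epithelium libraries, both labelled wild type and placed in 1 group, was analysed from 1 table of 1112 Olfr entries. Its FPKM values were deposited by the authors. TopHat2, Bowtie2, Cuffdiff and mm9 are named, without versions or roles, per the submitters' processing notes. The annotation, the handling of reads matching several genes and the depth are stated in neither labels nor table, so no counting interval could be given. The table carries 1 value per entry, not assigned to a library, and no test was made, since genes are not replicates.

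Members were taken by position alone, but this rule and the gene lists were set with earlier results of these data known. Every member may be named. The text details Olfr727, Olfr741, the highest 8 and lowest 5 members, those nearest the trio, and the pairs with the highest identity and the largest fold among pairs over 80% identical. Other genes were singled out after their values were seen. Locus starts count from 0 in the table, and 1 was added. All 36 symbols matched RefSeq (GRCm38.p6), which gave MOR names, and GENCODE M21 (GRCm38), which gave strands, exons and coding sequences of the longest coding transcript. Neither gave coordinates. Identity was planned between proteins and was computed between coding sequences, because no protein table was at hand (global alignment, Biopython 1.88, match 5, mismatch -4, gap opening -10, extension -0.5, gaps counted as differences). Unique 50-mers were counted against the transcripts of 1405 annotated Olfr genes. Medians and correlations used log2(FPKM + 0.1) where stated (Python 3.11.15, pandas 2.3.3, scipy 1.17.1). Functions were tested on simulated data. The pseudocount, low-value filter, gap, distance measure and shared sequence were varied.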

Additional observations from a re-analysis of the deposited data

How the results depend on the processing

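The median FPKM of the 36 receptors, 2.15, was 2.24 among values of 0.1 or more, 2.39 without NOTEST entries, 2.06 among receptors with at least 80% unique 50-mers and 2.54 with the trio added. Its log2 difference from all other entries, 0.97, was 0.62 with a pseudocount of 1, 1.03 with 0.01, 0.82 among entries of 0.1 or more, 0.97 without pseudogenes and 0.78 against the 943 class II entries of other chromosomes. The direction was the same in each. The share of the summed FPKM, 7.51%, was 8.98% with the trio, 4.81% without Olfr727 and Olfr741 and 5.94% without loci over 2 kb. Receptors with at least 80% unique 50-mers numbered 18. Of these, 13 (72.2%) reached an FPKM of 1, against 27 of all 36 (75%), 4 (22.2%) reached 5, against 11 (30.6%), and 2 (11.1%) reached 10, against 7 (19.4%); the cause was not tested. The Spearman coefficient of level with distance, 0.617, was 0.609 among values of 0.1 or more and 0.623 within 3 Mb. A gap of 50 kb gave 10 stretches and 200 kb gave 6, against 7. No member is a pseudogene by symbol or RefSeq type, so leaving pseudogenes out changed no count of members. The settings for 5 or more and 10 or more, for uniqueness in counts and for long loci were chosen after seeing the data. No paired analysis was possible because the libraries have no separate values. Settings that leave out replicate 1 or 2 could not be run either. With no depth in the table, the counting error of low values such as that of Olfr746 could not be computed.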
